A study of Mus musculus with 12 samples.

Results

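The miR-23/27/24 family was followed on 12 miRNA arrays through 7 array entries chosen by name from 611 mouse miRNAs: mmu-miR-23a, mmu-miR-23b, mmu-miR-27a, mmu-miR-27b, mmu-miR-24, mmu-miR-24-1* and mmu-miR-24-2*, written below without the species prefix. They come from 2 gene clusters. The a cluster holds miR-23a, miR-27a and miR-24-2*, the b cluster holds miR-23b, miR-27b and miR-24-1*, and both give the same mature miR-24. The star marks the strand of a hairpin that is usually the less abundant. All 7 entries passed the detection filter, which kept the 176 mouse miRNAs that both arrays of some group detected.

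The cells were mouse embryonic fibroblasts of C57BL/6 background, either wild type (ATF6bWT) or lacking ATF6b (ATF6bKO), a membrane-bound transcription factor of the endoplasmic reticulum stress response. Each genotype was left untreated or was kept in 2 µg/mL tunicamycin, which blocks N-linked glycosylation and so causes endoplasmic reticulum stress, for 12 h or 24 h. This gives 6 groups of 2 arrays, and the series asks which miRNAs respond to tunicamycin in an ATF6b-dependent way. The labels describe 2 independent experiments per condition but do not say how many embryos or cell lines stand behind a genotype, so the p-values measure the spread between these arrays and genotype cannot be told apart from cell line.

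Each cluster is transcribed as one primary RNA that is cut into its hairpins, and each hairpin is cut again into 2 strands. A miRNA pairs with messenger RNAs mainly through its seed, bases 2 to 8, so members with one seed can share targets. The family is known from work on muscle, blood vessels, fat and blood cells: miR-27 restrains adipocyte differentiation, miR-23 represses glutaminase, and miR-24 represses cell cycle genes.

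Mature sequences were matched in the RefSeq table used here (GRCm38.p6, all on the + strand) for 6 of the 7 members, miR-23b being the other. They are shown because the paralogs differ so little that the array must separate near-identical RNAs. The seed is in capitals.
miR-23a: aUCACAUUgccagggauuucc
miR-27a: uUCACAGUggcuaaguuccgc
miR-27b: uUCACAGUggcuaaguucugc
miR-24: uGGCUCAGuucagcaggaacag
miR-24-1*: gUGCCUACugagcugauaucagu
miR-24-2*: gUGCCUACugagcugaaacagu
The a cluster strands lie at chr8:84208563-84208583 (miR-23a), chr8:84208727-84208747 (miR-27a), chr8:84208839-84208860 (miR-24-2*) and chr8:84208875-84208896 (miR-24), outside protein-coding genes, with Zswim4 the nearest. The b cluster strands lie at chr13:63300760-63300780 (miR-27b), chr13:63301213-63301235 (miR-24-1*) and chr13:63301251-63301272 (miR-24), within Aopep, an aminopeptidase gene. Counted from the 5′ end, miR-27a and miR-27b differ only by C19U and share their seed and first 18 bases. The seed of miR-27a differs from that of miR-23a by U7G. The star strands miR-24-1* and miR-24-2* share their seed and first 16 bases. The sequences of miR-23a and miR-23b could not be compared, as miR-23b was not matched. How far the probes separate miR-23a from miR-23b, miR-27a from miR-27b, or the star strands from each other, was not tested.

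Levels are log2 signals relative to the 75th percentile of each array, so 0 is the level of that percentile. Signals under 0.0191 of it were set to a floor of -5.71. Probes differ in brightness, so levels are compared between groups for one member and not between members. On the arrays 114 to 189 mouse miRNAs were detected, and 3 arrays were dim (wild type 24 h replicate 2, knockout 12 h replicate 2 and knockout 24 h replicate 2), with 75th percentiles of 208 to 257 intensity units against 412 to 623 on the others. Untreated and treated cells were on separate slides, so slide and tunicamycin cannot be told apart. Wild-type arrays stood in slide row 1 and knockout arrays in row 2, so row and genotype cannot be told apart either. The arrays carry no probe for the Atf6b messenger RNA, so the genotype was not checked. Of 8 fibroblast miRNAs, 6 to 8 were detected on every array, while the 2 endothelial, 6 blood, 3 neural and 1 liver markers were detected on none and at most 1 of 4 muscle markers was.

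In wild-type cells, tunicamycin was followed by a fall of all 3 b cluster strands, of miR-24 and of the a cluster's star strand miR-24-2*, which sits at the floor, while miR-23a and miR-27a did not pass the test. At 12 h miR-23b was 3.45-fold lower (log2 change -1.79 ± 0.19, SE, 2 arrays against 2), and miR-27b was 2.58-fold lower. At 12 h 5 of the 7 members were called lower, where 23.9% of all tested miRNAs were called lower and 38.1% were called in either direction. At 24 h the same 5 members were called lower, against 29.5% lower and 43.2% in either direction over all miRNAs. Of these members, miR-24-2* passed the detection filter only through the untreated wild-type group that it is compared with. In knockout cells none of the 7 was called at either time (limma), where 25.6% of all tested miRNAs were called at 12 h and 30.7% at 24 h.

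miR-23b, the b cluster relative of miR-23a, had levels of 0.25 and 0.00 on the untreated wild-type arrays. After 12 h of tunicamycin its levels there were -1.43 and -1.90, and after 24 h they were -1.49 and -1.71. In knockout cells its levels were 0.47 and 0.37 untreated, 0.58 and 0.49 at 12 h, and 0.75 and 0.50 at 24 h. The 4 treated wild-type arrays lay below all 8 others with no overlap. The log2 change in wild type was -1.79 ± 0.19 at 12 h (limma, adjusted p = 0.000259) and -1.72 ± 0.19 at 24 h (adjusted p = 0.000408). In knockout cells it was 0.11 ± 0.19 at 12 h (95% interval -0.32 to 0.55) and 0.20 ± 0.19 at 24 h (-0.23 to 0.64). Without the 3 dim arrays the wild-type change at 24 h was -1.62 (adjusted p = 0.021). With arrays scaled over all mouse miRNAs the wild-type changes were -1.81 and -1.79 and did not pass (adjusted p = 0.0801 and 0.101).

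miR-27b, which shares its seed with miR-27a, had levels of -1.78 and -2.15 in untreated wild-type cells. At 12 h they were -3.42 and -3.25, and at 24 h -3.21 and -3.64. In knockout cells they were -1.60 and -1.93 untreated, -1.74 and -1.82 at 12 h, and -1.60 and -2.24 at 24 h. Again the treated wild-type arrays lay below every other array. On wild-type 24 h replicate 2, however, the level of -3.64 lay under that array's lowest probe signal well above background, -3.43. There 3 of 10 spots of the brighter probe and 0 of 9 of the dimmer one were well above background. The size of any 24 h value that uses this array is therefore uncertain. Without the 3 dim arrays, which include it, the 24 h change in wild type was -1.25. The log2 change in wild type was -1.37 ± 0.26 at 12 h (limma, adjusted p = 0.00492) and -1.46 ± 0.26 at 24 h (adjusted p = 0.0027), against -0.01 and -0.16 in knockout cells, where neither passed. With normexp background correction the changes in wild type were -0.57 and -0.46, and neither passed.

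miR-24-1*, the other strand of the b cluster's miR-24 hairpin, was dim. Its levels were -4.19 and -4.21 in untreated wild-type cells, and it was not detected on any of the 4 treated wild-type arrays, where it stood at the floor. The software flagged it as detected on all 6 knockout arrays. Its levels there were -4.39 and -4.13 untreated, -4.08 and -3.63 at 12 h, and -4.18 and -3.50 at 24 h. On knockout replicate 2 at 12 h and at 24 h, however, neither probe had a spot well above background. The levels on these arrays lay under their lowest probe signal well above background, -3.38 and -3.20. Since it was not measured in treated wild-type cells, the fall there is a bound, at least 1.56-fold at 12 h and at least 1.24-fold at 24 h. The bounds use the lowest probe signal well above background, averaged over the 2 arrays. This limit was -5.40 and -4.28 at 12 h, and -5.60 and -3.43 at 24 h. For replicate 2 it lay only just under the untreated levels at 12 h and above them at 24 h. The bounds therefore rest on replicate 1, and replicate 2 at 24 h shows no fall. The calls (limma, adjusted p = 0.00202 at 12 h and 0.0017 at 24 h) are on the floored levels and not on the bounds. With the floor on every treated wild-type array there is no spread in those groups, so the standard error rests on the other groups and the call follows the floor. Both calls were lost with the floor doubled (log2 changes -0.51 and -0.51, adjusted p = 0.137 and 0.136) and with normexp background correction (-0.24 and -0.03, adjusted p = 0.932 and 0.947). Of its 2 probes, 1 carried the change and the other had no spot above background on any of the 12 arrays.

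miR-24, the strand that both clusters produce, fell as well. Its levels were 1.63 and 1.23 in untreated wild-type cells, 0.64 and 0.32 at 12 h, and 0.44 and 0.11 at 24 h. In knockout cells they were 1.48 and 1.22 untreated, 1.61 and 1.44 at 12 h, and 1.59 and 1.09 at 24 h. The treated wild-type arrays were the 4 lowest. The log2 change in wild type was -0.95 ± 0.24 at 12 h (limma, adjusted p = 0.0165) and -1.15 ± 0.24 at 24 h (adjusted p = 0.00579), and without the 3 dim arrays the 24 h value was -0.99 and did not pass (adjusted p = 0.0645). The call at 12 h was lost without wild-type untreated replicate 1 (log2 change -0.75) or wild-type 12 h replicate 2 (-0.79). With all arrays, it was lost with normexp (-0.87, limma, adjusted p = 0.0531) and with the scanner software's totals (-1.09, adjusted p = 0.102). It was lost with no detection filter as well (adjusted p = 0.0827). The array cannot tell which cluster a miR-24 molecule came from, and whether its change differs from that of miR-23b was not tested.

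**Figure D1:**
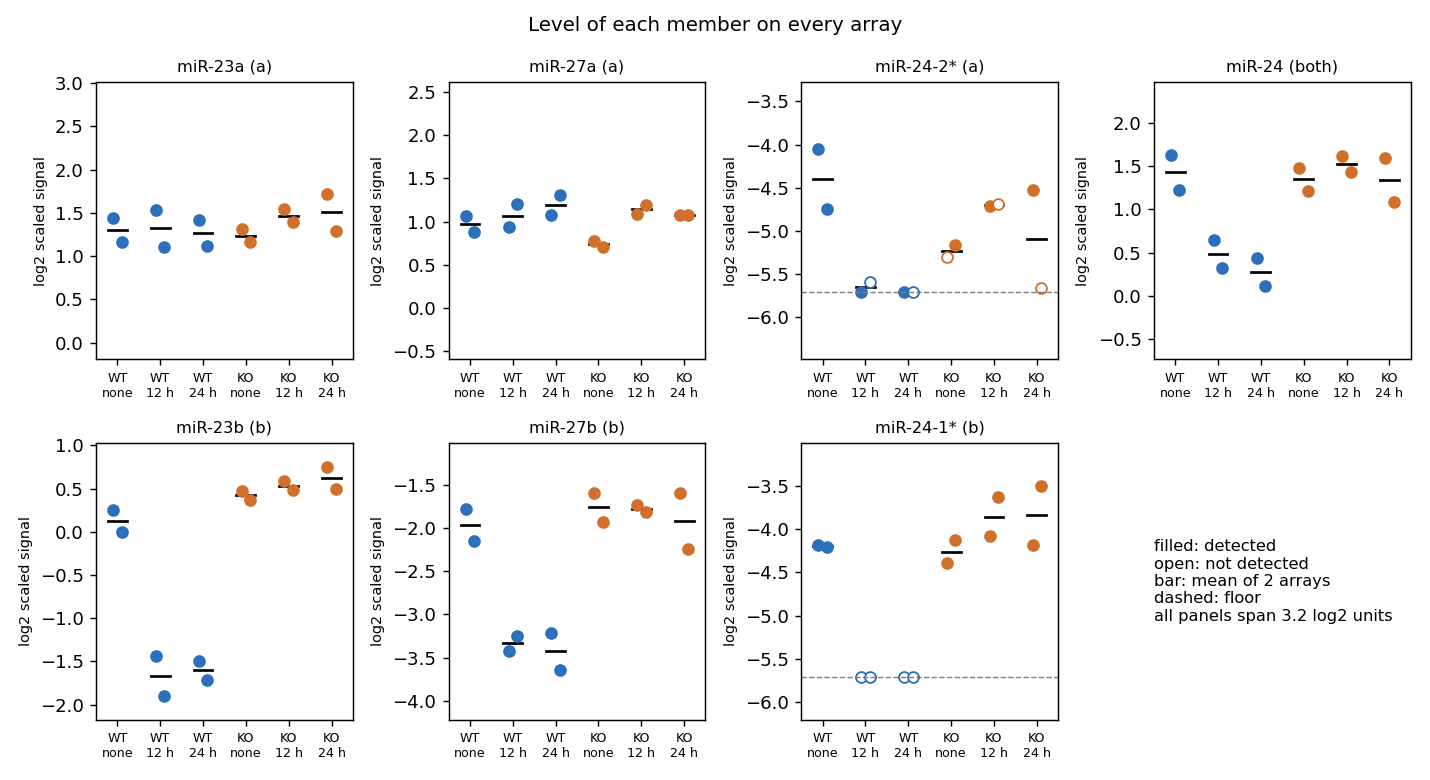
Log2 scaled signal of each member (vertical axis) on the 12 arrays, by genotype (blue, wild type; orange, knockout) and hours of tunicamycin; points are arrays, bars are means of 2, open points were not detected. miR-23b, miR-27b, miR-24 and miR-24-1* are lowest on the 4 treated wild-type arrays, while miR-23a stays between 1.11 and 1.71 on all 12.

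The a cluster's main strands were not called in either genotype. miR-23a had levels of 1.44 and 1.16 in untreated wild-type cells, 1.54 and 1.11 at 12 h, and 1.42 and 1.12 at 24 h. The knockout arrays gave 1.31 and 1.16 untreated, 1.55 and 1.39 at 12 h, and 1.71 and 1.30 at 24 h. The wild-type groups overlapped, with log2 changes of 0.02 ± 0.21 at 12 h (95% interval -0.48 to 0.52) and -0.03 ± 0.21 at 24 h (-0.53 to 0.46). A change smaller than about those bounds was not detectable with 2 arrays a group.

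miR-27a, the strand best known for restraining fat cell formation, had levels of 1.07 and 0.88 in untreated wild-type cells, 0.94 and 1.20 at 12 h, and 1.08 and 1.31 at 24 h. In knockout cells they were 0.78 and 0.71 untreated, 1.09 and 1.20 at 12 h, and 1.08 and 1.07 at 24 h. The untreated knockout arrays were the 2 lowest of the 12. The log2 changes in wild type were 0.09 ± 0.14 at 12 h (95% interval -0.24 to 0.42) and 0.22 ± 0.14 at 24 h (-0.11 to 0.55). In knockout cells miR-27a was at 0.40 ± 0.14 at 12 h (limma, adjusted p = 0.0833) and 0.33 ± 0.14 at 24 h (adjusted p = 0.116), neither of which passed. The 12 h value passed with the scan within each slide as a term (adjusted p = 0.0321).

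miR-24-2*, the star strand of the a cluster, was called lower in treated wild-type cells, where it was barely measured. It passed the detection filter only through untreated wild-type cells, its highest group and the baseline of these calls. The filter thus favoured a fall, and the calls are not read as support for one. Its levels were -4.05 and -4.74 in untreated wild-type cells, -5.71 and -5.59 at 12 h, and -5.71 on both arrays at 24 h. The knockout arrays gave -5.30 and -5.17 untreated, -4.72 and -4.68 at 12 h, and -4.53 and -5.66 at 24 h. It was detected on 1 of 2 arrays in each of the wild-type 12 h, wild-type 24 h, knockout untreated, knockout 12 h and knockout 24 h groups, so most of these levels sit at the limit of the array. The floor held 1 of the 2 treated wild-type arrays at 12 h and both at 24 h, so the fitted size of its change is set by the floor. That fitted log2 change in wild type was -1.25 at 12 h (limma, adjusted p = 0.0275) and -1.31 at 24 h (adjusted p = 0.0204). With no detection filter neither passed (limma, adjusted p = 0.149 and 0.116). Both calls were lost when wild-type untreated replicate 1 was left out (log2 changes -0.90 and -0.96), and also without either treated array (-1.19 and -1.31 at 12 h, -1.31 and -1.31 at 24 h) or with the floor doubled (-0.33 at both times).

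**Figure D2:**
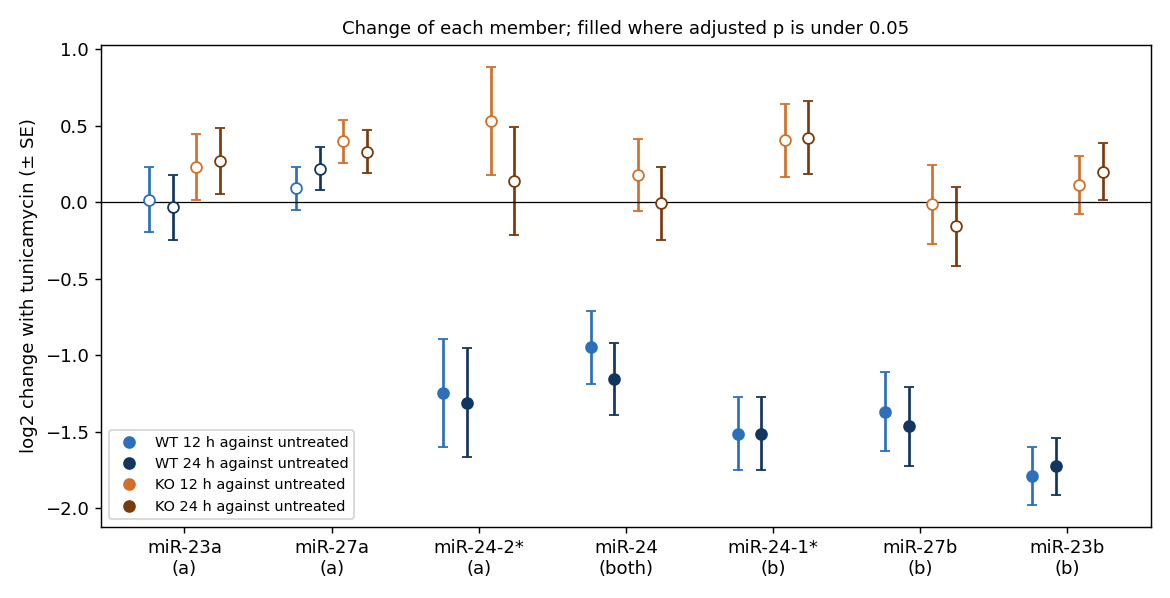
Log2 change with tunicamycin ± SE (vertical axis) for each member, at 12 h and 24 h in wild type (blue) and knockout (orange), from limma; filled points have an adjusted p under 0.05. The 10 filled points are all in wild type, and miR-23a and miR-27a have none. The wild-type points of miR-24-1* and miR-24-2* are set by the floor.

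No further change was called between 12 h and 24 h. None of the 7 members was called for 24 h against 12 h in either genotype (limma), and none had an unadjusted p under 0.05. The shares over all tested miRNAs were 1.14% for wild type and 0.568% for knockout. For miR-23b the log2 difference was 0.06 ± 0.19 in wild type and 0.09 ± 0.19 in knockout.

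In knockout cells 1 member, miR-27a, had an unadjusted p under 0.05 at each time. The median log2 change of the members was 0.23 at 12 h and 0.20 at 24 h, beside 0.25 and 0.15 over all tested miRNAs. In wild type the members' median was -1.25 at 12 h and -1.31 at 24 h, beside -0.05 and -0.03 over all tested miRNAs.

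The response itself was compared between genotypes, as the change in knockout minus the change in wild type. At 12 h 5 of 7 members were called, all with the higher value in knockout, where 22.2% of all tested miRNAs were called higher and 24.4% in either direction. The difference was 1.90 ± 0.26 for miR-23b (limma, adjusted p = 0.00259), 1.35 ± 0.36 for miR-27b (adjusted p = 0.0323) and 1.12 ± 0.34 for miR-24 (adjusted p = 0.0462). The star strands were called too (adjusted p = 0.00776 for miR-24-1* and 0.0369 for miR-24-2*), but their treated wild-type levels are set by the floor. miR-24-2* passed the detection filter only through untreated wild-type cells, and did not pass here without that filter (limma, adjusted p = 0.175). For miR-24-1* the difference is a bound of at least 1.05, and with the floor doubled neither star strand passed (0.92, adjusted p = 0.0841, and 0.34, adjusted p = 0.419). For miR-23a it was 0.21 ± 0.30 and for miR-27a 0.30 ± 0.20, neither of which passed. At 24 h 4 members were called (19.9% of all called higher, 20.5% in either direction): miR-23b at 1.93, miR-27b at 1.31, miR-24 at 1.15 and miR-24-1* with a bound of at least 0.74. The call on miR-24-1* was lost with the floor doubled (0.93, adjusted p = 0.0988), and miR-24-2* missed (adjusted p = 0.0815). Both bounds on miR-24-1* take in replicate 2 of treated knockout, where no spot of it was well above background.

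Calls on miR-27b, miR-24 and miR-24-2* in this comparison are close to the threshold. At 12 h the count fell from 5 to 2, leaving miR-23b and miR-24-1*, without any single array of the knockout untreated, knockout 12 h or wild-type 12 h groups or without wild-type untreated replicate 1, and to 3 without either wild-type 24 h array. At 24 h, dropping replicate 2 of untreated wild type kept 4, dropping replicate 2 of the knockout 24 h group gave 5, and dropping replicate 1 of the wild-type 24 h group gave 3. Dropping any other single array gave 2. Without all 3 dim arrays it was 1, miR-24-1*, with miR-23b at 1.94 (adjusted p = 0.058). miR-23b had the higher value in knockout under all alternatives, but both its calls were lost with quantile normalization (1.74 and 1.56, limma, adjusted p = 0.0693 and 0.148). Both were also lost with the software's totals (1.97 and 1.92, adjusted p = 0.0553 and 0.0797). With arrays scaled over all mouse miRNAs, or with the deposited values, no member was called.

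Knockout and wild type were also compared within each condition. In untreated cells no member was called (limma; 11.4% of all tested miRNAs were), and 1 member, miR-24-2*, had an unadjusted p under 0.05. At 12 h 4 members were higher in knockout, where 29.5% of all miRNAs were called higher and 38.1% in either direction. miR-23b was 4.59-fold higher (log2 difference 2.20 ± 0.19, adjusted p = 8.01e-05), miR-27b was 2.94-fold higher (1.56 ± 0.26, adjusted p = 0.00261), and miR-24 was 2.06-fold higher (1.04 ± 0.24, adjusted p = 0.0106). With normexp background correction miR-27b was at 0.84 at 12 h and 0.72 at 24 h and neither passed (adjusted p = 0.0502 and 0.085), nor did they with the software's totals (adjusted p = 0.0656 and 0.173). Both calls on miR-24 were also lost with normexp (0.85 and 0.92, limma, adjusted p = 0.0615 and 0.0788) and with the software's totals (adjusted p = 0.138 and 0.211). With no detection filter miR-24 did not pass at 12 h (adjusted p = 0.0544). miR-24-1* was at least 1.98-fold higher as a bound, and the fit on its floored levels passed (limma, adjusted p = 0.000902). At 24 h the same 4 members were called (27.3% higher, 34.7% in either direction), with 4.67-fold for miR-23b and at least 1.59-fold for miR-24-1*. Both bounds on miR-24-1* take in replicate 2 of treated knockout, where no spot of it was well above background. Both calls on miR-24-1* were lost with normexp (0.65 and 0.53, adjusted p = 0.262 and 0.444). The call on miR-24 was lost at 12 h when replicate 1 of treated knockout (leaving 0.95) or replicate 2 of treated wild type (0.88) was dropped. At 24 h it was lost when replicate 1 of treated knockout (0.81) or replicate 2 of treated wild type (0.90) was dropped, and without the 3 dim arrays (1.15, adjusted p = 0.0716).

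The arrays of a slide were read in 2 scans, each with 1 array of every group on that slide, and the genotype differences were present in both. For miR-23b, knockout minus wild type was 0.23 and 0.37 in the scans of untreated cells, 2.01 and 2.38 at 12 h, and 2.24 and 2.21 at 24 h. For miR-27b it was 0.18 and 0.22, then 1.68 and 1.43, then 1.62 and 1.40. For miR-23a it was -0.13 and -0.00, then 0.01 and 0.28, then 0.29 and 0.18.

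Markers of other cells moved with the genotype comparison. Of 8 epithelial miRNAs, 4 to 5 were detected in knockout cells at 12 h and 3 to 5 at 24 h, with summed levels of 2.65 to 3.84 times the 75th percentile. In the other 4 groups none was detected, and the sum was at most 0.0188. The 3 epithelial markers miR-429, miR-205 and miR-203 were not detected on any array. The summed fibroblast markers were at 36.4 to 42.0 in treated wild-type cells, 41.2 to 48.6 in untreated cells of either genotype, and 46.3 to 53.6 in treated knockout cells. Of these markers, miR-31 was not detected in treated wild-type cells, and miR-145 was detected only in untreated knockout cells. The brightest markers weigh most in the sum, so it can hide changes of single ones. The part of these markers in the changes of the members was not tested. In bulk RNA, fewer cells of a type and less RNA per cell cannot be told apart.

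Because both paralogs were read on one array, a single scaling factor for the array does not change their difference, except at the floor. Its absolute size holds the brightness of both sets of probes and is not a ratio of molecules, so only its change between groups is read. For miR-23b minus miR-23a the difference was -1.19 and -1.16 in untreated wild-type cells, -2.97 and -3.00 at 12 h, and -2.91 and -2.83 at 24 h. In knockout cells it was -0.84 and -0.79 untreated, -0.97 and -0.90 at 12 h, and -0.97 and -0.80 at 24 h. The arrays of a group lay close together, and the treated wild-type arrays stood far below the other 8.

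The miR-23 pair thus shifted by -1.81 ± 0.11 at 12 h in wild type (limma on 179 rows, adjusted p = 2.04e-05) and by -1.69 ± 0.11 at 24 h (adjusted p = 3.11e-05). With the deposited values these wild-type shifts kept their size but did not pass (limma, adjusted p = 0.0985 and 0.155). In knockout cells the shifts were -0.12 (95% interval -0.38 to 0.14) and -0.07 (-0.33 to 0.19). The difference between the genotypes in this shift was 1.69 ± 0.15 at 12 h (adjusted p = 0.000175) and 1.62 ± 0.15 at 24 h (adjusted p = 0.000192). These 2 calls were lost with normexp (1.21 and 1.02, adjusted p = 0.0982 and 0.242) and with the deposited values (adjusted p = 0.367 and 0.995). The 24 h call was also lost with arrays scaled over all mouse miRNAs (limma, adjusted p = 0.0658), though the value stayed at 1.62. By quantiles the value was 1.51 and did not pass either (adjusted p = 0.0543). Knockout minus wild type was 2.05 at 12 h and 1.99 at 24 h, and these calls on the treated groups held under every alternative run. In untreated cells it was 0.36 ± 0.11 (adjusted p = 0.0617), which did not pass. It passed with the replicate number as a block (adjusted p = 0.027), with the floor doubled (0.0136), with only miRNAs detected on all arrays (0.034), with no detection filter (0.0378) and without the 3 dim arrays (0.0406).

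For miR-27b minus miR-27a, whose sequences differ by 1 base, the values were -2.85 and -3.04 in untreated wild-type cells, -4.35 and -4.45 at 12 h, and -4.30 and -4.95 at 24 h. The knockout arrays gave -2.37 and -2.64 untreated, -2.83 and -3.01 at 12 h, and -2.67 and -3.32 at 24 h. The treated wild-type arrays were again the 4 lowest. The value of -4.95 uses a miR-27b level under the lowest probe signal well above background on that array. Without the 3 dim arrays, which include it, the 24 h shift in wild type was -1.35. The shift in wild type was -1.46 ± 0.27 at 12 h (limma, adjusted p = 0.00459) and -1.68 ± 0.27 at 24 h (adjusted p = 0.00193). With normexp these were -0.64 and -0.45 and neither passed (adjusted p = 0.0804 and 0.26). With the deposited values they were -1.68 and -1.80, and neither passed (limma, adjusted p = 0.163 and 0.165). The 12 h call was also lost with arrays scaled over all mouse miRNAs (limma, adjusted p = 0.0724), though the shift stayed at -1.46. The shifts in knockout, -0.41 and -0.49, had the same sign and did not pass. The difference between genotypes was 1.05 ± 0.38 at 12 h (adjusted p = 0.087) and 1.19 ± 0.38 at 24 h (adjusted p = 0.0679), so it did not pass. With the scan within each slide as a term it passed at both times (limma, adjusted p = 0.0159 and 0.0125).

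The star strands gave no called shift. miR-24-1* minus miR-24-2* was -0.13 and 0.54 in untreated wild-type cells and between -0.12 and 0.00 on the treated wild-type arrays, where both strands were at or near the floor. In knockout cells it ran from 0.35 to 2.15. The widest gap within a group was at knockout 24 h, with 0.35 and 2.15, so this pair cannot be read finely.

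**Figure D3:**
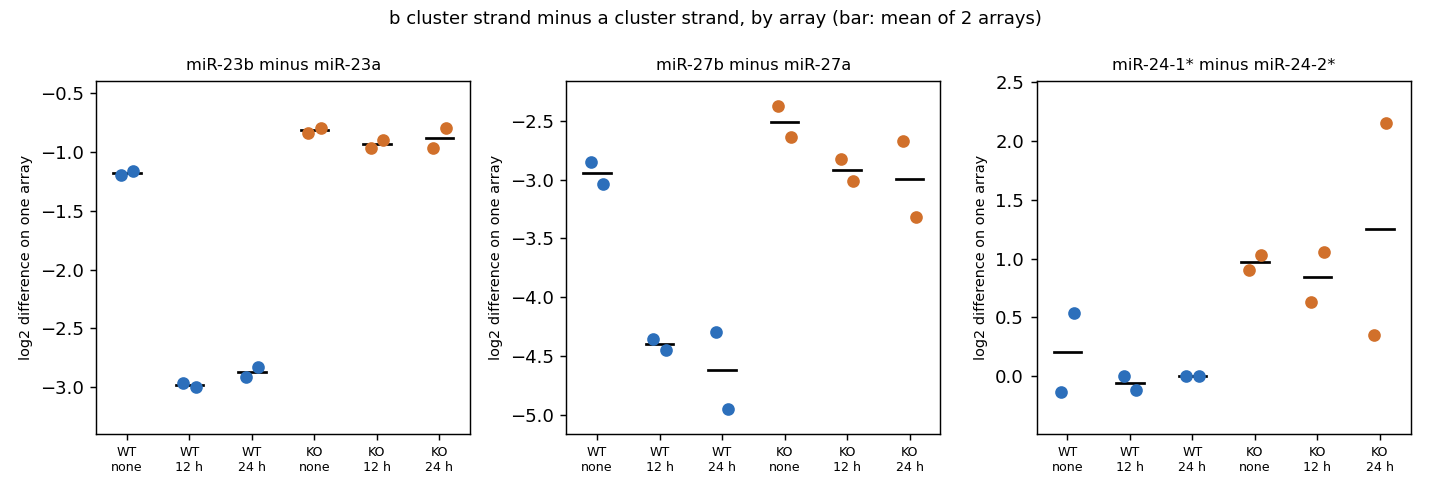
Log2 difference between the b cluster and a cluster strand on each array (vertical axis), for the 3 pairs, by genotype and hours of tunicamycin; points are arrays and bars are means of 2. The miR-23 pair lies between -3.00 and -2.83 on treated wild-type arrays and between -1.19 and -0.79 on the other 8.

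Over all conditions, an exact two-sided permutation test that moved genotype labels within each condition gave a mean difference of 1.47 for the miR-23 pair (knockout minus wild type, p = 0.00926) and 1.18 for the miR-27 pair (p = 0.00926). This is the smallest p that the 216 arrangements allow. Moving treatment labels within genotype (225 arrangements) gave an exact permutation p = 0.00889 for the miR-23 pair (treated minus untreated -0.92) and p = 0.00444 for the miR-27 pair (-1.01). Adjusted over the 6 tests run, these 4 exact permutation tests had a value of 0.0111. Each treatment value averages both genotypes. In knockout alone the shifts at 12 h and 24 h were -0.12 and -0.07 for the miR-23 pair. They were -0.41 and -0.49 for the miR-27 pair, and none of these was called. The tests of the star pair are not read, because the floor sets its values in treated wild-type cells.

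Along the 12 arrays the levels of miR-23b and miR-27b ran together (Pearson r = 0.96), as did those of miR-24 with miR-23b (0.94) and with miR-27b (0.97). miR-23a and miR-27a, of the same primary transcript, did not (0.03), and miR-24 had 0.49 with miR-23a and -0.40 with miR-27a. These are descriptions over arrays that fall into groups, and all share the scaling of their array. Of 88 other miRNAs detected on all arrays, those most like the mean of miR-23b and miR-27b were miR-434-3p (0.99), miR-143 (0.99) and miR-199a-3p (0.98). Those most like miR-24 were miR-324-5p (0.98), miR-143 (0.98) and miR-434-3p (0.97), and those most like the mean of miR-23a and miR-27a were let-7f, miR-10a and miR-93 (0.86, 0.86 and 0.85). Of these, miR-143 and miR-199a-3p are also on the fibroblast list above. In wild type the mean of miR-143 went from -0.75 untreated to -2.64 at 12 h and -2.88 at 24 h. In knockout it went from -0.28 to -0.13 and -0.53. For miR-199a-3p the means were 1.83, 1.07 and 0.93 in wild type and 2.09, 1.92 and 1.86 in knockout. The rest of that list was read only by detection and by its sum.

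The order of the group means shows where each member sits. For miR-23b it ran from knockout 24 h (0.62) through knockout 12 h (0.53), untreated knockout (0.42) and untreated wild type (0.12) to wild type at 24 h (-1.60) and 12 h (-1.66). The last pair overlapped, as did the first pair. For miR-27b the 4 upper groups lay between -1.76 and -1.96 and each overlapped its neighbour, followed by a step of 1.37 to wild type at 12 h. For miR-24 the step between the fourth and the fifth group was 0.86. For miR-23a all 6 groups overlapped their neighbours, and the lowest mean was 1.24, in untreated knockout.

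As a share of the summed mouse miRNA signal, the 7 members made up 7.87% and 7.57% in untreated wild-type cells, 6.14% and 5.26% at 12 h, and 6.22% and 5.23% at 24 h. In knockout cells they made up 7.81% and 7.99% untreated, 7.99% and 6.94% at 12 h, and 7.94% and 6.90% at 24 h. The share of miR-23b alone went from 0.983% and 0.977% to 0.332% and 0.232% at 12 h in wild type. These are shares of fluorescence, which depends on the probes, and not of molecules.

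The probes of a strand were also read singly. At 12 h in wild type the 2 probes of miR-23b were at -1.76 and -1.91, those of miR-24 at -0.99 and -0.92, those of miR-23a at -0.09 and 0.05, and those of miR-27a at 0.13 and 0.08. The brighter miR-27b probe was at -1.34, while the dimmer one was at the floor in treated wild-type cells and had no spot above background on 5 of the 12 arrays, so its own change was not measured. The opposite strands miR-27a* and miR-27b* are on the array and were detected on none, and miR-23a* and miR-23b* are not among its entries.

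The scanner software's own totals for the star strands need care. For the 5 main strands the software's total equalled the summed probe totals, apart from miR-27b, where it was 0.844 to 1 times that sum. For miR-24-1* and miR-24-2* the total was above that of miR-24 itself in 12 of their 15 detected values, by 4.65 to 22.6 intensity units, and it was 24.9 to 94.2 times the strand's own probe totals. On untreated wild-type array 1, the probes of miR-24-1* summed to 19.9 units while its total was 1139, beside 1124 for miR-24. The authors' deposited log2 values equal the log2 of these totals to within 1.18e-06, so a reader who takes the deposited values finds the star strands at the level of miR-24. All levels above were therefore taken from the probes.

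**Figure D4:**
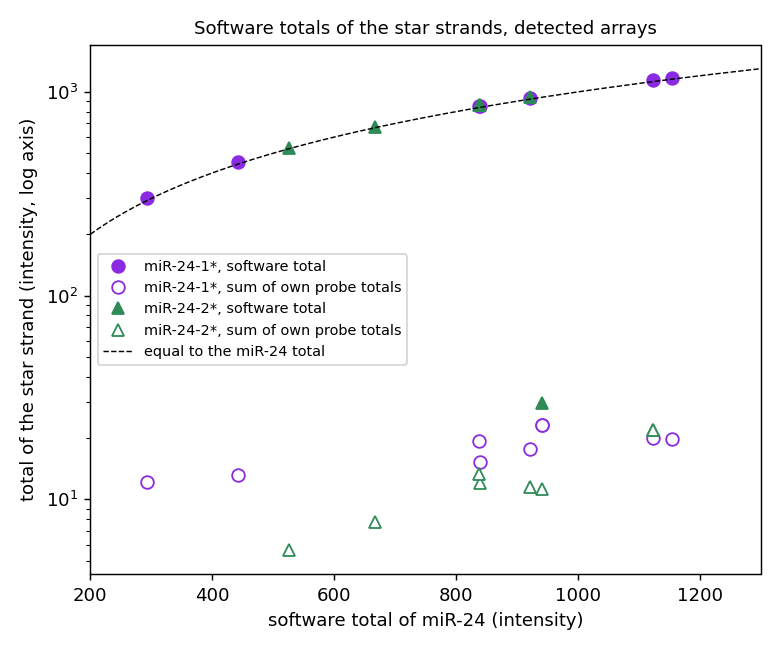
Totals of the star strands (vertical, intensity, log axis) against the software total of miR-24 on the same array (horizontal, intensity), for the 15 detected values; filled marks are the software's totals, open marks the strand's own probes, and the dashed line marks equality with miR-24. In 12 values the filled mark lies just above the line.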

How the data were processed

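Scanner tables of 1-colour (Cy3) Agilent miRNA arrays, made from 100 ng of total RNA per the labels' protocols, were the starting point. The authors deposited linear spot intensity. The submitters' processing notes name Agilent Feature Extraction 10.7.1.1 for it. They also deposited log2 values, which were found to be the log of the software's gene totals with no scaling between arrays. Array names were kept as the files give them. Here background-subtracted intensity was averaged over the spots of a probe, the 2 probes of a miRNA (10 spots each) were summed, and the sums were scaled to the 75th percentile of the 93 miRNAs that no array missed, floored and put on a log2 scale. For testing, limma 3.58.1 (R 4.3.3) was fitted to 176 miRNAs with 6 residual and 1.65 prior degrees of freedom, in 11 comparisons, with Benjamini-Hochberg adjustment and a threshold of 0.05, and the 3 paralog differences were fitted as further rows (179 in all). The fit was tested on simulated data. All 7 members are named, and the look-alike miRNAs are the 3 with the highest Pearson r per profile. Bounds use, on each array, the lowest probe with all spots well above background. Alternatives were other scalings, background corrections, filters, floors, blocks and left-out arrays. A normexp correction on median spot signals, with 10 spots left out, was chosen after seeing the data. Members and lists were chosen with earlier results of these data known.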

Additional observations from a re-analysis of the deposited data

Results flagged for a closer look

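The response to tunicamycin differed between the genotypes, by the interaction term in limma, for 5 members at 12 h and 4 at 24 h. Over all tested miRNAs 24.4% were called at 12 h and 20.5% at 24 h. The median interaction value over all tested miRNAs was 0.37 and 0.44. The values below are the log2 change in knockout minus that in wild type, all with the higher value in knockout. miR-23b was at 1.90 at 12 h and 1.93 at 24 h, miR-27b at 1.35 and 1.31, and miR-24 at 1.12 and 1.15. The fitted values of the star strands, 1.92 and 1.93 for miR-24-1* and 1.78 at 12 h for miR-24-2*, are set by the floor in treated wild-type cells, and with the floor doubled none of them passed. As a bound, miR-24-1* was at least 1.05 at 12 h and at least 0.74 at 24 h. These bounds take in replicate 2 of treated knockout, where no spot of miR-24-1* was well above background. The difference of miR-23b from miR-23a on the same array had interaction values of 1.69 at 12 h and 1.62 at 24 h. Groups of 2 arrays are too small for a check of single outlying arrays.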

How the results depend on the processing

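Counts of members called were 5 and 5 for wild type at 12 h and 24 h, 5 and 4 for the response difference, and 4 and 4 for knockout against wild type in treated cells. In the same order, the shares called over all tested miRNAs were 38.1% and 43.2%, 24.4% and 20.5%, and 38.1% and 34.7%. Shares under the alternatives below are not given. A loss of calls on the members therefore cannot be told apart from a loss over all miRNAs. With the deposited log2 values, or with arrays scaled over all mouse miRNAs, all 6 counts were 0. With normexp background correction they were 1, 2, 1, 1, 1 and 1. Quantile normalization gave 0 for both response differences, and the software total gave 3 for wild type at 12 h, 1 and 0 for the response differences, and 2 and 2 for knockout against wild type. Testing only miRNAs detected on all arrays, which drops both star strands, gave 3 and 3 in wild type and 3 for the 12 h response difference. Doubling the floor gave 3, 3, 2 and 2 for the first 4 counts and 1 for knockout at 12 h, where the scan term also gave 1. No detection filter gave 3 for wild type at 12 h and 2 and 2 for the response differences, and leaving out the 3 dim arrays gave 3 for wild type at 24 h and 2 and 1 for them. The normexp setting, the 3 dim arrays, each probe alone and the dropped spots were chosen after seeing the data. The cause of these changes was not tested. Paralog differences called numbered 10 of 33, against 2 with deposited values and 5 with normexp.

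Leaving out 1 array gave 3 to 5 and 4 to 5 called in wild type, 2 to 5 for both response differences, 3 to 5 for both treated genotype comparisons, 0 to 1 for knockout at 24 h (miR-24-1* without knockout 24 h replicate 1) and 10 to 13 for paralog differences. miR-24-2* reversed in wild type with the deposited values (2.29 at 12 h, 1.95 at 24 h) and with normexp at 24 h (0.057).

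The replicate numbers follow the scan within a slide: deviations of same-numbered arrays correlated at 0.67 to 0.96 on one slide and below 0 across slides, so the numbers do not pair untreated with treated arrays. With the replicate block the counts were 5, 5, 5, 4, 4 and 4, and 13 paralog differences were called.

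A scaling over all mouse miRNAs or by quantiles moved the median change of knockout at 12 h from 0.25 to 0.03 and 0.00. With 2 arrays a group, dim strands near the floor limit what could be detected.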
